A study of Mus musculus with 8 samples.

Results

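The 9 endothelial genes Pecam1, Cdh5, Emcn, Eng, Kdr, Flt1, Flt4, Tek and Tie1 were followed in tumor cells sorted from mouse brain metastases. They were chosen by name as genes that mark blood and lymphatic vessel lining, and all 9 were found among the 31894 genes of the count table. Tumor cells came from mammary tumors driven by the PyMT oncogene and carried an endogenous E-cadherin tagged with mCFP, a cyan fluorescent protein, and the nuclear label H2B-Dendra2. They had been enriched for growth in the brain by repeated intracranial passage, kept as organoids (BCBM, breast cancer brain metastasis) and injected into the brain of adult wild-type FVB mice. From the tumor of each of 4 mice, numbered 57, 58, 67 and 70, live Dendra2-positive cells were sorted into a CFP-positive population, E-cadHI, and a CFP-negative population, E-cadLO, and each population gave 1 mRNA library, so that there were 4 libraries per group. All groups shared the oncogene, the labels, the organoid source and the host strain, the passaged organoids are a limited sample of the parent tumors, and the purity check given in the methods covered CFP-positive cells only.

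Endothelial cells line vessels and hold together through junction proteins such as VE-cadherin and PECAM1. Vascular endothelial growth factors (VEGFs) signal to them through the receptor tyrosine kinases encoded by Flt1, Kdr and Flt4, and angiopoietins through the kinase encoded by Tek, which acts together with its relative Tie1. In the brain these cells also form the blood-brain barrier, and breast tumor cells that grow there meet and often follow the vessels. A tumor cell sort is meant to hold no endothelial cells, so the question here was how much of this gene set was measured in each population and whether E-cadLO and E-cadHI differed within each mouse.

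Library totals were 11876177 to 14922074 counts in E-cadHI and 9102781 to 15769200 in E-cadLO. A floor of 3 counts corresponded to 0.201 to 0.348 CPM, counts relative to library size after scaling by trimmed mean of M values, which is the level used throughout unless counts are named. The E-cadLO library of mouse 57 stood apart. It held 8077 counts of Vcam1 and 3183 counts of Cd34, both adhesion genes of several stromal cell types, against 7 and 0 in the E-cadHI library of the same mouse, and its fibroblast list summed to 1033 CPM against 18.5 to 48.3 CPM in the other 3 E-cadLO libraries. Values without this mouse stand beside the results that this library moved most.

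Flt1 was the only member measured at an appreciable level in every library, at 33.7 to 82.5 CPM, and the other 8 lay between 0 and 11.9 CPM. Summed over those 8 genes, E-cadHI held 1.25, 3.68, 4.53 and 10.95 CPM and E-cadLO 23.6, 4.18, 9.93 and 25.3 CPM in mice 57, 58, 67 and 70. The sum was higher in the E-cadLO library of each mouse, 18.8-fold in mouse 57, 1.14-fold in mouse 58, 2.19-fold in mouse 67 and 2.31-fold in mouse 70, while the groups overlapped. Without Tek as well, the ratio in mouse 58 was 0.709. No member passed the test between the groups: 0 of the 5 that had enough counts to be tested (Pecam1, Eng, Kdr, Flt1, Tek) had an adjusted p under 0.05 in the quasi-likelihood test of edgeR, with p-values adjusted after Benjamini and Hochberg, as did 0 of all 13598 genes tested (0.0% in each direction), of which 8.16% were higher and 5.81% lower in E-cadLO at an unadjusted p under 0.05. With the mouse as a block, edgeR called 99 genes higher (0.728%) and 0 lower (0.0%), none of them a member. In bulk libraries, fewer cells of a type and less RNA per cell cannot be told apart.

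**Figure D1:**
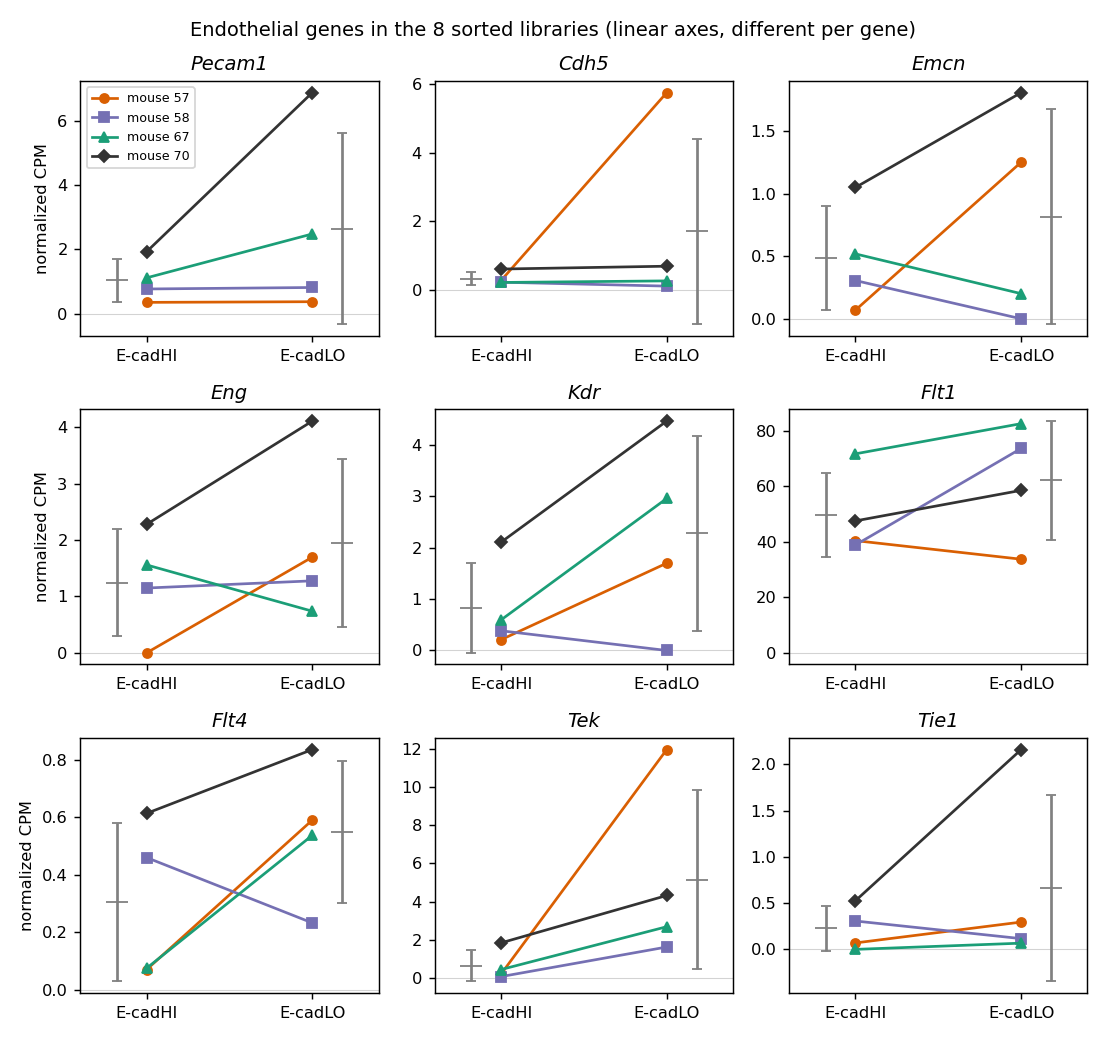
Normalized CPM of each endothelial gene (vertical axes, linear and different per gene) in E-cadHI and E-cadLO, with the 2 libraries of a mouse joined by a line and the grey cross and bar giving the mean ± SD of 4 libraries. Flt1 sits at 33.7 to 82.5 CPM, the Tek line goes up in all 4 mice, and the Cdh5 line stands out in mouse 57 alone.

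Flt1 and Tek carried the main pattern, the former by its level and the latter by its ratio, so the 250 bases before their starts are shown together with those of Kdr, the main signalling VEGF receptor, for comparison. The sequences are from RefSeq on GRCm38.p6, where 7 of the 9 members were matched (Pecam1 and Cdh5 were not). Capitals mark GGAA, the core letters bound by ETS factors, or TTCC, the same letters on the opposite strand. The Flt1 window is chr5:147726012-147726261 on the minus strand, the Tek window chr4:94739039-94739288 on the plus strand and the Kdr window chr5:75978456-75978705 on the minus strand.
Flt1: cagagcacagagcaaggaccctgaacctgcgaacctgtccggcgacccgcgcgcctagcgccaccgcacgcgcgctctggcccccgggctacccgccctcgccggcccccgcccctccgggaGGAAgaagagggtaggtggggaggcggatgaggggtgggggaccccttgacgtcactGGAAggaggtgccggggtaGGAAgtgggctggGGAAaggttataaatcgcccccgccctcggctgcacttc
Tek: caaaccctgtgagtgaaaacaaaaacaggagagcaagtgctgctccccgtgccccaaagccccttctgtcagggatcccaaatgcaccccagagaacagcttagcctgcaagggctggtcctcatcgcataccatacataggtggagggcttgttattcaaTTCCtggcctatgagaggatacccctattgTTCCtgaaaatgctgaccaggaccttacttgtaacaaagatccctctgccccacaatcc
Kdr: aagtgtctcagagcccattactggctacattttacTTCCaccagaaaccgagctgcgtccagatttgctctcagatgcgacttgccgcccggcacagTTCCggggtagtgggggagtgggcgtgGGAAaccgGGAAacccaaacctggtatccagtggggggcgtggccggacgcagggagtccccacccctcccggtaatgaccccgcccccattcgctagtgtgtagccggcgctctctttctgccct
GGAA on either strand was present in 93.4% of all 32851 promoter windows, with a median of 3, so the 4 in Flt1, 2 in Tek and 4 in Kdr are ordinary. Tie1 had 7, a number reached by 3.82% of windows. The Flt1 window held 23 CG dinucleotides, a number reached by 13.3% of windows, against 16 in Kdr, 2 in Tek and a median of 6. It was the only one of the 7 members with the letters TATAAA, read on the gene's strand, in the last 50 bases before the start, which 2.63% of all windows had. GCGTG, a hypoxia response core searched on both strands, occurred 2 times in Kdr, 1 time in Flt1 and 1 time in Emcn, and in 28.2% of all windows, whereas ACGTG occurred in none of the 7 and in 16.6% of all. These are letter matches and describe the windows only.

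Among the junction and surface genes, levels were low and no gene separated the groups. Pecam1 (chr11:106654217-106750628, minus strand, GRCm38) encodes the junction adhesion protein CD31. It had 5, 10, 15 and 22 counts in E-cadHI and 5, 7, 37 and 99 in E-cadLO of mice 57, 58, 67 and 70, which were 0.348, 0.766, 1.11 and 1.93 CPM against 0.369, 0.812, 2.48 and 6.89 CPM. Mice 67 and 70 were higher in E-cadLO, by 2.23-fold (95% counting interval 1.19 to 4.37) and 3.58-fold (2.24 to 5.96), and mice 57 and 58 were near 1. These intervals are exact binomial and cover counting error only. The log2 fold change was 1.35 (SE 0.91, adjusted p = 0.490, edgeR) and 0.73 (adjusted p = 0.721, edgeR) without mouse 70.

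Cdh5 (chr8:104101625-104144511, plus strand) encodes VE-cadherin, the adherens junction cadherin that is the defining protein of endothelial junctions. Its counts were 4, 3, 3 and 7 in E-cadHI and 78, 1, 4 and 10 in E-cadLO. The 78 counts of mouse 57 (5.75 CPM) stood alone, and the other 7 libraries held 0.116 to 0.696 CPM. In that mouse the ratio was 20.7 (7.75 to 77.7), and in the other 3 the counting interval included 1. Cdh5 did not pass the filter on low counts. Its mean within-mouse log2 ratio was 0.74 ± 1.52 (SD, n = 4) and -0.02 without mouse 57.

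Pecam1 and Cdh5, which mark the same cells in textbooks, parted in a single library. Cdh5 made up 94.0% (exact 95% interval 86.5 to 98.0) of the summed Pecam1 and Cdh5 counts in E-cadLO of mouse 57, where Pecam1 stayed at 5 counts, and 9.17% to 44.4% in the other 7 libraries. Of the 36 pairs of members, this pair was the least alike, with a root mean square difference of 1.53 in centred log2 CPM over 8 libraries, against 0.50 for the most alike pair, Flt4 and Tie1. Without the E-cadLO library of mouse 57 the difference was 0.748, the 19th from the least alike of the 36, and Kdr and Flt1 were then the least alike, at 1.15.

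Emcn (chr3:137341067-137432185, plus strand) encodes endomucin, a sialoglycoprotein of capillary and venous endothelium. It had 1, 4, 7 and 12 counts in E-cadHI and 17, 0, 3 and 26 in E-cadLO, higher in E-cadLO of mice 57 and 70 and lower in mice 58 and 67. The counting interval left out 1 in mouse 57 (2.82 to 752) and included it in mice 58, 67 and 70. The mean within-mouse log2 ratio was 0.24 ± 1.08 (SD, n = 4) and -0.22 without mouse 57, and the gene did not pass the filter.

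Eng (chr2:32646595-32682669, plus strand) encodes endoglin, a co-receptor for ligands of the TGF-beta family. It had 0, 15, 21 and 26 counts in E-cadHI and 23, 11, 11 and 59 in E-cadLO. Mouse 70 was higher in E-cadLO (1.80-fold, 1.12 to 2.98), and so was mouse 57, which had no E-cadHI count and an interval from 6.09 upward. Mice 58 and 67 had intervals that included 1. The log2 fold change was 0.66 (SE 1.004, adjusted p = 0.756, edgeR) and 0.27 (adjusted p = 0.937, edgeR) without mouse 57. Eng shares 61 exon bases with Fpgs on the opposite strand, which had 290 to 501 counts per library, and the strand setting of the counting is not given in the sources used here.

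The VEGF receptor genes differed widely in level. Flt1 (chr5:147561604-147726011, minus strand) encodes VEGFR1, the high-affinity receptor for VEGF-A and placental growth factor that also exists as a secreted form. It had 580, 507, 965 and 542 counts in E-cadHI and 457, 634, 1229 and 840 in E-cadLO, or 40.4, 38.8, 71.6 and 47.5 CPM against 33.7, 73.6, 82.5 and 58.5 CPM. The groups overlapped at 49.6 ± 15.2 and 62.1 ± 21.3 CPM (SD, n = 4 each). Flt1 was higher in E-cadLO of mouse 58 (1.89-fold, 1.68 to 2.13), 67 (1.15-fold, 1.06 to 1.25) and 70 (1.23-fold, 1.10 to 1.37) and lower in mouse 57 (0.834, 0.737 to 0.945), so that at 457 to 1229 counts per library small differences exceeded counting error, in opposite directions. The log2 fold change was 0.33 (SE 0.30, adjusted p = 0.598, edgeR).

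Flt1 made up most of the members' counts in every library. It supplied 97.0%, 91.4%, 94.1% and 81.3% of all members' counts in E-cadHI of mice 57, 58, 67 and 70 and 58.8%, 94.6%, 89.3% and 69.8% in E-cadLO. The share falls by arithmetic where the other 8 members sum high and Flt1 changes little, so it does not measure whether Flt1 followed them. In centred log2 CPM over 8 libraries, the root mean square difference of Flt1 from another member ran from 0.67 (Flt4) to 1.49 (Tek). The most and least alike of all pairs of members were at 0.50 and 1.53. The lowest share, in E-cadLO of mouse 57, had a Wilson 95% interval of 55.3 to 62.2.

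Kdr (chr5:75932827-75978458, minus strand) encodes VEGFR2, the receptor that carries most VEGF-A signalling in endothelium. It had 3, 5, 8 and 24 counts in E-cadHI and 23, 0, 44 and 64 in E-cadLO. E-cadLO was higher in mouse 57 (8.12-fold, 2.45 to 42.2), 67 (4.97-fold, 2.32 to 12.2) and 70 (2.12-fold, 1.31 to 3.54), and in mouse 58 E-cadLO had no count, with an interval that included 1. The log2 fold change was 1.49 (SE 1.11, adjusted p = 0.526, edgeR) and 1.26 (adjusted p = 0.790, edgeR) without mouse 57.

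Flt4 (chr11:49609263-49652739, plus strand) encodes VEGFR3, the receptor for VEGF-C and VEGF-D of lymphatic and sprouting endothelium. It had 1, 6, 1 and 7 counts in E-cadHI and 8, 2, 8 and 12 in E-cadLO, at most 0.836 CPM, and did not pass the filter. Only in mouse 57 did the counting interval leave out 1, and there it ran from 1.14 to 376.

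Of the members, the angiopoietin receptor Tek had the highest mean within-mouse ratio on CPM plus 0.5 and led on that scale in mice 57, 58 and 67, while Tie1 and Pecam1 exceeded it in mouse 70. Tek (chr4:94739289-94874976, plus strand) encodes TIE2, the receptor of angiopoietins. It had 3, 1, 6 and 21 counts in E-cadHI and 162, 14, 40 and 62 in E-cadLO, or 0.209, 0.077, 0.445 and 1.84 CPM against 11.9, 1.62, 2.68 and 4.32 CPM. E-cadLO was higher in all 4 mice, and every counting interval lay above 1, at 57.2 (19.2 to 280), 21.2 (3.23 to 897), 6.03 (2.54 to 17.4) and 2.35 (1.41 to 4.05). The groups nevertheless overlapped, because E-cadHI of mouse 70 held more than E-cadLO of mouse 58. Without overlap, E-cadLO was above E-cadHI in 0 of the 9 members, beside 3.88% of the genes tested and 2.21% of all genes with counts, and below in 0, beside 4.21% and 2.26%.

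The log2 fold change of Tek was 3.01 (SE 1.001), with an unadjusted p of 0.0141 and an adjusted p of 0.298 by edgeR, and 3.22 (SE 0.86, adjusted p = 0.143) with the mouse as a block. It was 1.86 (adjusted p = 0.691) without mouse 57 and 4.46 (adjusted p = 0.285) without mouse 70. With the mouse as a block, DESeq2 called Tek higher in E-cadLO (3.35, SE 0.84, adjusted p = 0.0022), along with 7.57% of the genes higher and 1.65% lower. The edgeR fit with the block and no filter on low counts was chosen after seeing the data. It also called Tek higher (3.22, adjusted p = 0.0004), along with 3.85% of genes higher and 1.47% lower. DESeq2 without the block called 0 of the members, beside 2.19% of genes higher and 0.449% lower.

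Tie1 (chr4:118471191-118490061, minus strand) encodes the orphan partner of TIE2. It had 1, 4, 0 and 6 counts in E-cadHI and 4, 1, 1 and 31 in E-cadLO. Only mouse 70 differed beyond counting error, at 4.11-fold (1.69 to 12.04), and the 7 other libraries held at most 0.526 CPM. Tie1 did not pass the filter.

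Within mice, the mean log2 ratio of E-cadLO to E-cadHI, computed on CPM plus 0.5, was above 0 for all 9 members and ran from 0.24 ± 1.08 for Emcn to 2.20 ± 1.34 for Tek (SD, n = 4 mice). Of all genes tested 52.1%, and of all genes with counts 51.7%, had a mean above 0. Tek and Pecam1 were higher in 4 of 4 mice (16.7% of genes tested, 9.18% of all 30100 genes with counts), each at the smallest p that 4 pairs allow in an exact two-sided sign-flip permutation test, which cannot pass 0.05. For Pecam1 the log2 ratios of mice 57 and 58 were only 0.03 and 0.05, and their counting intervals included 1. The other 7 were higher in 2 or 3 mice, with exact p from 0.25 to 0.75 before adjustment.

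The mice did not resemble each other in this respect. In mouse 70 all 9 members were higher in E-cadLO, in mouse 57 it was 8, in mouse 67 it was 7 and in mouse 58 it was 4. The median log2 ratio of the members was 1.62, -0.24, 0.20 and 0.73 in mice 57, 58, 67 and 70, beside 0.01, 0.00, 0.01 and 0.06 over all genes tested. In mouse 58 Tek and Flt1 were higher and the remaining 7 were between -0.82 and 0.11. In mouse 57 Tek, Cdh5 and Eng led, whereas in mouse 70 Pecam1 and Tie1 led, so the members behind the difference changed from mouse to mouse.

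**Figure D2:**
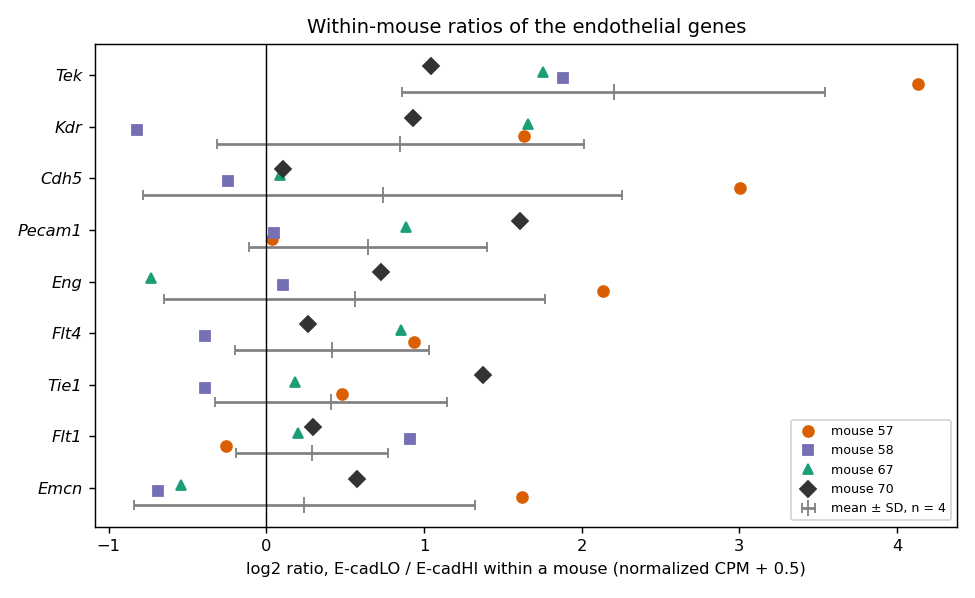
Log2 ratio of E-cadLO to E-cadHI within each mouse on normalized CPM plus 0.5 (horizontal axis), 1 point per mouse, with the grey bar giving the mean ± SD of 4 mice and genes ordered by mean. The Tek points all lie above 0, from 1.04 to 4.13, and the points of mouse 58 lie below 0 for 5 of the 9 genes.

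**Figure D3:**
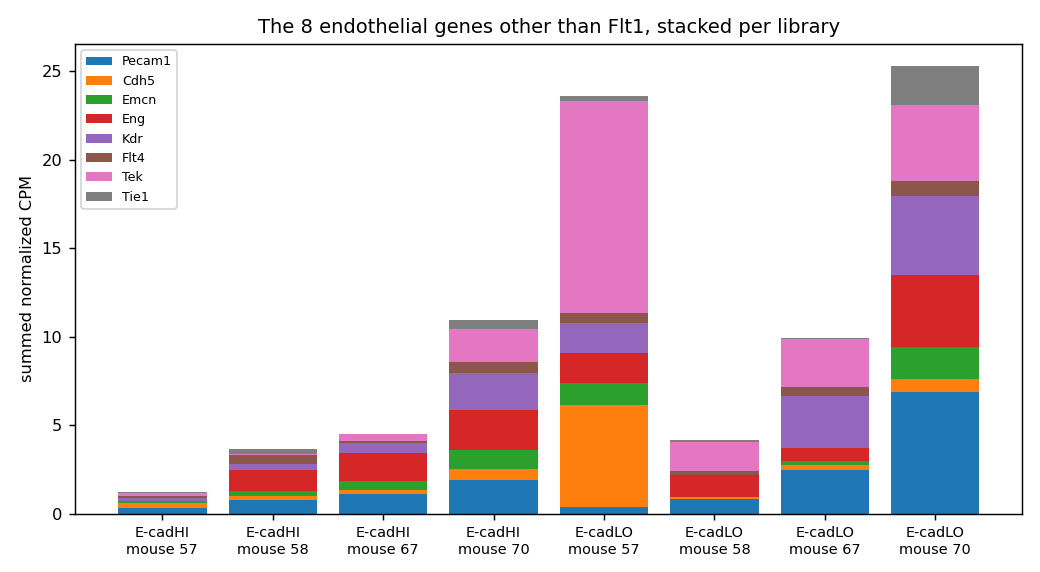
Summed normalized CPM of the 8 members other than Flt1 in each library (vertical axis from 0), stacked by gene. The total reached 25.3 CPM in E-cadLO of mouse 70 and 23.6 CPM in E-cadLO of mouse 57, the latter made mostly of Tek at 11.9 and Cdh5 at 5.75 CPM.

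Per length, as CPM per kilobase of merged exons averaged over the 8 libraries, the order of levels was Flt1 at 4.13, Tek 0.614, Eng 0.395, Pecam1 0.295, Cdh5 0.243, Kdr 0.172, Emcn 0.120, Tie1 0.090 and Flt4 0.052. Flt1 was at the 64.7th percentile of 20220 protein-coding genes and Flt4 at the 22.6th. The step from Flt1 to Tek held in 7 of 8 libraries, the exception being E-cadLO of mouse 57, where Tek reached 2.54 and Flt1 2.50 CPM per kilobase. All other neighbours kept their order in only 4 to 6 of 8 libraries and did not differ beyond the spread. Above 3 counts were 3, 7, 6 and 9 members in E-cadHI and 9, 4, 7 and 9 in E-cadLO of mice 57, 58, 67 and 70.

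The genes whose centred log2 CPM lay nearest to each member over the 8 libraries were sought among all other tested genes. For Kdr the nearest was Esam, an endothelial and platelet adhesion gene, with a root mean square difference of 0.16, followed by Ccl3 (0.27) and Dcp1b (0.33). For Flt1 they were Pdzd7 (0.18), Ero1l, an oxidoreductase of protein folding (0.21), and Slc2a1, the glucose transporter GLUT1 (0.22) that brain endothelium also carries. For Tek they were Rgcc (0.30), Ablim1 (0.36) and Snx24 (0.40), for Cdh5 Plpp1 (0.15), Msrb3 (0.19) and Sphk1 (0.19), and for Pecam1 P2ry6 (0.29), Pkp4 (0.30) and Ankrd40 (0.30). For Eng they were Nfam1, Kctd12 and Dbndd1 (0.35 to 0.38), for Emcn Grk5, Tspan6 and Cyp4v3 (0.16 to 0.23), for Flt4 Cela1, D5Ertd579e and Pim2 (0.17 to 0.19), and for Tie1 Dtx1, Mgat5 and Slc22a4 (0.14 to 0.23). The search left out the members themselves.

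The ligands of these receptors were also measured. Of 8 ligand genes, 6 were tested and 0 passed in either direction by edgeR, with or without the block, and their median log2 fold change was 0.77 beside 0.06 over all genes tested, and 0.42 beside 0.02 without mouse 57. Pgf, placental growth factor and a ligand of Flt1, was the most abundant, at 157 ± 40.4 CPM in E-cadHI and 165 ± 90.1 CPM in E-cadLO (SD, n = 4 each), with a log2 fold change of 0.07 (SE 0.39). Vegfa had 66 to 124 counts in E-cadHI and 59 to 265 in E-cadLO, and Vegfb 42 to 161 and 18 to 268. Vegfc, a ligand of Flt4, had 7 to 17 counts in E-cadHI and 6 to 22 in E-cadLO except for 324 in E-cadLO of mouse 57. The Tek ligand Angpt1 had 102, 27, 49 and 15 counts in E-cadHI and 244, 28, 57 and 68 in E-cadLO of mice 57, 58, 67 and 70 and was higher in CPM in E-cadLO of all 4 mice (log2 fold change 1.08, SE 0.72, adjusted p = 0.487, edgeR). Angpt2, which competes with Angpt1 at Tek, had 2 to 87 counts per library, the 87 again in E-cadLO of mouse 57.

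Of 10 receptor partners, 7 were tested and 0 passed by edgeR with its filter on low counts, with or without the block. Nrp1, the neuropilin co-receptor of Kdr, had 9, 28, 39 and 85 counts in E-cadHI and 2321, 41, 108 and 333 in E-cadLO. It was higher in CPM in E-cadLO of all 4 mice, with a log2 fold change of 3.99 (SE 1.22, adjusted p = 0.284, edgeR), and 1.47 (adjusted p = 0.681, edgeR) without mouse 57. DESeq2 called it higher at 4.05 (adjusted p = 0.0377) but not with the mouse as a block, at 2.36 (adjusted p = 0.199), and edgeR with the block gave 2.49 (adjusted p = 0.252). With the block and no filter, a setting chosen after seeing the data, edgeR called Nrp1 higher (2.45, adjusted p = 8.6e-12), along with 3.85% of genes higher and 1.47% lower. Nrp2, the co-receptor of Flt4, had 23 to 41 counts in E-cadHI and 17 to 55 in E-cadLO except for 553 in mouse 57. Acvrl1, the endothelial receptor ALK1 that works with endoglin, had 77 to 122 counts in E-cadHI and 0, 73, 22 and 65 in E-cadLO, lower in CPM in 3 of 4 mice (log2 fold change -1.08, SE 1.02). The edgeR fit with the block and no filter, chosen after seeing the data, called Acvrl1 lower (-1.86, adjusted p = 0.0206), along with 1.47% of genes. Without mouse 57 the log2 fold change of Acvrl1 was -0.62 (adjusted p = 0.789, edgeR), and -0.89 (adjusted p = 0.458, edgeR) with the block as well. Bmpr2, Tgfbr2, Plxnd1 and Grb10 had log2 fold changes of 0.25, 0.62, 0.71 and 1.29, none of which passed, and -0.08, -0.15, -0.28 and 1.23 without mouse 57, so that the direction turned for Bmpr2, Tgfbr2 and Plxnd1.

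A wider list of pan-endothelial genes summed higher in E-cadLO of each mouse, though unevenly, at 45.6, 1.42, 2.70 and 2.85-fold in mice 57, 58, 67 and 70. Of the 30 found in the table, 16 were tested, 0 passed by edgeR and their median log2 fold change was 1.504, and 9 of the 16 were higher in E-cadLO in 4 of 4 mice, as were 16.7% of all genes tested. The median was 1.12 without mouse 57. DESeq2 called 2 of them higher in E-cadLO without the mouse as a block (Cd34 and Rasip1) and 4 with it (Icam2, Ecscr, S1pr1 and Rasip1), named here after their values were seen, in fits that called 2.19% and 7.57% of all genes higher. Of the 16 tested, 14 had a log2 fold change above 0. Erg, an ETS factor of endothelial identity that was not tested and is named here after its values were seen, had at most 2 counts in any library. The list summed to 20.1 to 103 CPM in E-cadHI and 72.3 to 914 CPM in E-cadLO, and without Vcam1 and Cd34 E-cadLO of mouse 57 held 83.4 CPM in place of 914.

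Genes of the brain endothelial barrier gave no common direction. Of 18, 15 were tested and 0 passed, with a median log2 fold change of 0.48. The most abundant, Slc2a1, Abcg2, Ocln, Lsr and Slc16a1, had log2 fold changes of 0.51, -0.21, -0.07, -0.37 and -0.06 and are also expressed by epithelial cells. Cldn5, the claudin that seals the brain endothelial tight junction and is named here after its values were seen, had 0, 5, 15 and 126 counts in E-cadHI and 6, 4, 23 and 302 in E-cadLO, so that mouse 70 held most of it in both populations. Of 8 tip cell and lymphatic genes 3 were tested and 0 passed.

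Marker lists of other cells differed in direction. The microglia and fibroblast lists were higher in E-cadLO of all 4 mice, and the astrocyte list in 3. The neutrophil list, nearly all of it Ltf, was lower in all 4, though at 0.982 in mouse 58. The microglia and macrophage list, all 14 tested, summed to 39.3 to 291 CPM in E-cadHI and 236 to 1046 CPM in E-cadLO. Of its 14 genes, 13 were higher in E-cadLO in 4 of 4 mice, as were 16.7% of all genes tested. Cx3cr1, P2ry12, Itgam and Cd68 were among its genes that rose in edgeR with the mouse as a block, which called 0.728% of all genes higher. The astrocyte list summed to 1145 to 3549 CPM in E-cadHI and 718 to 9845 CPM in E-cadLO, and 3 of its 8 genes (Gfap, Slc1a3 and S100b) rose in the same fit. The lower sum in E-cadLO of mouse 57 came mostly from Aldoc, at 1004 CPM in E-cadHI and 123 CPM in E-cadLO. Of the 8 genes, 5 (Gfap, Slc1a2, Slc1a3, Gja1 and S100b) were higher in E-cadLO in 4 of 4 mice, as were 16.7% of all genes tested. The fibroblast list was 127-fold higher in E-cadLO of mouse 57 and 1.76 to 2.65-fold higher in the other mice. Mural cell markers, which lie beside endothelium in vessels, summed to 103 to 195 CPM in E-cadHI and 87.1 to 240 CPM in E-cadLO, and platelet markers to 4.46 to 8.27 and 8.73 to 10.5 CPM. Of the 9 mural markers tested, 2 were higher and 3 lower in E-cadLO in 4 of 4 mice. Higher in 4 of 4 were 16.7% of all genes tested, and the share lower in 4 of 4 was not computed. Anpep, an aminopeptidase that many cell types carry, fell in DESeq2 with the block (log2 fold change -1.53, adjusted p = 0.0030). That fit called 13 of 14 microglia, 6 of 8 astrocyte and 2 of 6 tested fibroblast genes higher, and none of these lower. Of all genes tested it called 7.57% higher and 1.65% lower. Epithelial tumor markers, the check of the sorted cells, summed to 7808 to 10528 CPM in E-cadHI and 5796 to 14673 CPM in E-cadLO and had a median log2 fold change of -0.17 with 0 of 12 passing, and of 0.02 without mouse 57. The 8 neutrophil markers, of which 3 were tested and 0 passed by edgeR, summed to 12810 to 19349 CPM in E-cadHI and 2612 to 12574 CPM in E-cadLO. Ltf, lactoferrin, which mammary epithelium also makes, alone held 12785 to 19325 and 2606 to 12562 CPM, so the sum describes Ltf. Ltf and S100a8 were lower in E-cadLO in 4 of 4 mice, for which the share of all genes was not computed. Ltf fell in DESeq2 with the block (-1.28, adjusted p = 0.0104). Of the 3 tested, 1 had a log2 fold change above 0. No gene of these lists was at 0 in all 8 libraries. The part of these other cells in the endothelial values was not tested.

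**Figure D4:**
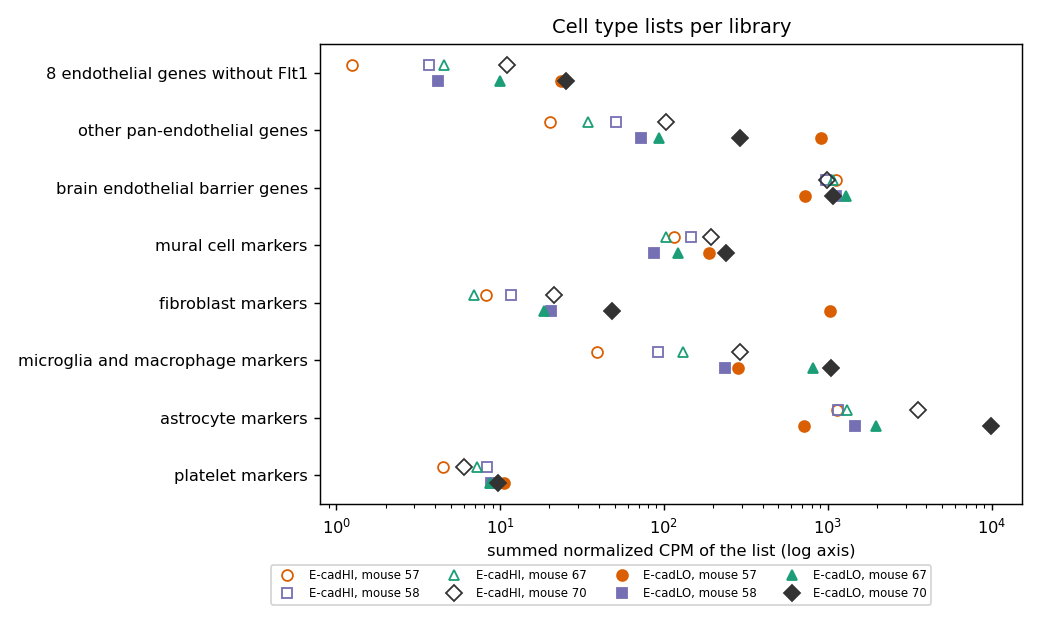
Summed normalized CPM of each marker list (horizontal log axis) in the 8 libraries, open symbols for E-cadHI and filled symbols for E-cadLO, with a symbol shape per mouse. The 8 endothelial genes other than Flt1 lie between 1.25 and 25.3 CPM, the range in which the platelet list and the fibroblast list of E-cadHI also lie, and the fibroblast list of E-cadLO of mouse 57 lies at 1033 CPM.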

How the data were processed

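Live tumor cells of 4 mice were sorted by E-cadherin-mCFP, and mRNA was sequenced as single reads after TruSeq preparation. The submitters' processing notes name HISAT2 2.1.0, HTSeq and GRCm38, whereas the methods name Icount for counting, and the strand setting is not given in the sources used here. The deposited values are raw read counts per gene, which the authors did not normalize in the table used. Of 32259 entries, 365 without a gene identifier (0.0647% of counts in the E-cadHI library of mouse 57) were left out of library sizes and tests.

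The 9 members and all gene lists were chosen with earlier results of these data known. Groups were compared in edgeR 4.0.16 (R 4.3.3) with trimmed mean of M values scaling, its filter on low counts by group (13598 genes kept) and the quasi-likelihood test, with Benjamini-Hochberg adjustment over all genes kept and a threshold of 0.05. The mouse as a block and DESeq2 1.42.0 were alternatives, as the study names DESeq2 and no pairing. Libraries of a number came from the same mouse, and their deviations from the group means correlated at 0.248 to 0.692, against at most 0.144 between mice. P-values of the fits without the block measure the spread among the libraries of a group and ignore the pairing by mouse. P-values of the fits with the block and of the sign-flip test measure the spread of the within-mouse difference over these 4 mice. Positions and exon lengths were taken from the GENCODE annotation of GRCm38. No pair of libraries agreed within sampling noise (smallest chi-square per degree of freedom 29.1). Genes named were all 9 members, every tested ligand and receptor partner, at most 5 tested genes per other list by mean CPM, any gene of a list called with or without the block, and the 3 nearest genes per member. Erg and Cldn5 were named outside this rule, after their values were seen. A gene that this rule names is not reported here.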

Additional observations from a re-analysis of the deposited data

Results flagged for a closer look

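Of 27 groups of 4 values examined (each member's CPM per group and its within-mouse ratios), 4 held a value far from the other 3, where chance flags about 1 in 20. The groups were not independent, because the ratios come from the same CPM values, so the count of flags does not measure an excess. Cdh5 stood out 3 times: at 0.613 CPM in E-cadHI of mouse 70, at 5.75 CPM in E-cadLO of mouse 57, and by a within-mouse log2 ratio of 3.01 in mouse 57. The value and the ratio of mouse 57 rest on the same 78 counts. Tie1 stood out at 2.16 CPM in E-cadLO of mouse 70. The Cdh5 value of 0.613 CPM rests on 7 counts.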

How the results depend on the processing

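The count of genes higher in E-cadLO moved from 0 to 23 without a filter, 3 with at least 10 counts in every library, 298 in DESeq2, 99 in edgeR and 1030 in DESeq2 with the mouse as a block, and 1159 with the block and no filter (chosen after seeing the data). The count lower moved from 0 to 61 in DESeq2, 225 in DESeq2 with the block and 443 with the block and no filter. Leaving out 1 mouse gave 0 to 425 higher and 0 to 24 lower; with the block these were 425 and 24 without mouse 57, 63 and 3 without mouse 58, 0 higher without mouse 67 and 2 higher without mouse 70. Members called higher went from 0 to 1 (Tek) in DESeq2 with the block, at 3.35 (adjusted p = 0.0022), and in edgeR with the block and no filter, at 3.22 (adjusted p = 0.0004). The cause was not tested. The block changed no other member's call. Where a gene passed the filter of the alternative, Tek ran from 1.86 to 4.46 (15 alternatives), Kdr from 0.87 to 2.05 (13, none without mouse 70), Pecam1 from 0.49 to 1.53 (13, none without mouse 67) and Flt1 from 0.10 to 0.45 (16), positive in each of these. Eng ran from -0.0066 to 1.57, the reversal coming without mouse 57 and with the block. Without mouse 57 the mean within-mouse ratio also reversed for Cdh5 (-0.017, up to 1.07 without another mouse) and Emcn (-0.22, up to 0.55). Members with few counts limit the precision: Cdh5, Emcn, Flt4 and Tie1 were at or under 3 counts in several libraries, so that most of their within-mouse ratios could not be told from 1 at this depth.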
